A study of Saccharomyces cerevisiae with 27 samples.

Results

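The genes described here are those of budding yeast (Saccharomyces cerevisiae) whose deposited interval starts less than 20 kb from the left end of a chromosome, or ends less than 20 kb before the end of the last gene interval on its chromosome. The rule used position only, and it chose 154 of the 5298 genes in the table, 40 at left ends and 114 at right ends. Members came from 12 left ends and all 16 right ends. The right ends in the table lay 2118 to 36611 bp, with a median of 10317 bp, inside the last gene of the RefSeq annotation of the same build (sacCer3), so the name chromosome end holds less strictly there. Measured from the last RefSeq gene, 87 of the 154 genes lay within 20 kb. RefSeq lists 253 coding genes in those windows, of which 84 had a row in the table, and the others are not used here. The members just inside the limit were RPS4B and BAS1, at 19788 and 19720 bp, and the genes just outside it were LEU3 and BMH1, at 20032 and 20096 bp.

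RNA was compared in 4 strains and DNA in RNA-DNA hybrids (DRIP-seq) and DNA breaks (Break-seq) in 2 of them. In hst34rrp6 the gene HST4 was deleted and both Hst3 and Rrp6 were fused to FRB. In rrp6 only Rrp6 was fused to FRB, in hst34 HST4 was deleted and Hst3 was fused to FRB, and WT was an anchor-away strain with no named target. Every strain, WT included, was an anchor-away strain, in which rapamycin draws an FRB-tagged protein out of the nucleus. All were grown in YPD, a rich glucose medium, to log phase and received rapamycin for 3 h before harvest. By this design the loss of Hst4 was permanent, while that of Hst3 and Rrp6 was to be induced by rapamycin. Each group had 2 libraries, and the labels do not say whether they came from separate cultures. The p-values below therefore refer to scatter among these libraries, some or all of which may be technical. In RNA that scatter is pooled over genes of similar level. A gene's own 2 libraries can thus differ more than its standard error shows.

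In this yeast the regions next to the telomeres are packed by the Sir proteins into repressed chromatin, and they hold many genes that are off or weakly expressed in rich medium. Among the genes there are transporters for sugars, iron, phosphate and amino acid breakdown products, flocculins, and a silent copy of the mating-type information. Hst3 and Hst4 belong to the same sirtuin family as Sir2 and remove acetyl groups from the core of histone H3. Rrp6 is an exoribonuclease that joins the RNA exosome in the nucleus, where it degrades non-coding and aberrant transcripts.

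RNA values are the authors' signal, scaled to a fission yeast spike-in and to gene length, so levels are per kb and can be set beside each other between genes. Between 5487526 and 10183415 reads per RNA library fell in genes. HST4 had a signal of 3.34 and 0 in hst34rrp6, 91.5 and 100.3 in rrp6, 9.69 and 0.726 in hst34, and 92.5 and 93.3 in WT, which fits the labels. RRP6 had 347 and 423 in hst34rrp6, 353 and 415 in rrp6, 674 and 430 in hst34, and 666 and 741 in WT. It passed the test as lower in hst34rrp6 and in rrp6, each against WT. HST3 did not pass in any strain against WT. Of 6 genes specific to a cells, 5 had signals from 878 to 28853 in every library. BAR1 was weak, with 0 and 1.97 in hst34rrp6, 1.29 and 1.48 in rrp6, 15.9 and 16.2 in hst34, and 24.8 and 25.7 in WT. Why BAR1 was lower in both strains with tagged Rrp6 was not tested. Of 4 measured genes specific to alpha cells, MF(ALPHA)1, MF(ALPHA)2 and STE3 stayed at or below 61.8, while SAG1 had signals from 145 to 231. SIR2, which encodes the silencing deacetylase, did not pass the test in any strain against WT. Of 48 measured genes for silencing and telomere upkeep, 8 passed the test in hst34rrp6 against WT, beside 15.9% of all genes, and 4 in rrp6 against WT, beside 11.2% of all genes. RRM3 was lower in both and the others were higher. In hst34rrp6 against rrp6 EST1 alone passed, higher.

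Genes near the ends had less RNA than genes elsewhere. The median signal of the 154 members was 265 and 306 in hst34rrp6, 236 and 262 in rrp6, 261 and 203 in hst34, and 255 and 299 in WT. The other 5143 genes with RNA values had medians of 349 and 405 in hst34rrp6, 323 and 368 in rrp6, 365 and 266 in hst34, and 316 and 360.4 in WT. The members were lower than the rest in every library. Distances at right ends were taken from the last gene interval, which lay up to 36611 bp inside the last RefSeq gene, so true distances there are larger. By that distance the lowest levels lay within 10 kb of the end. Members within 5 kb had medians of 163 and 195 in hst34rrp6, 132 and 157 in rrp6, 158 and 91.4 in hst34, and 129 in both WT libraries. Those at 5 to 10 kb had 195 and 217 in hst34rrp6, 163 and 197 in rrp6, 181 and 124 in hst34, and 199 and 208 in WT. Further in there was no steady order. Members at 10 to 15 kb had 313 and 370.1 in hst34rrp6, 292 and 344 in rrp6, 438 and 349 in hst34, and 334 and 440.0 in WT, above the other genes of the genome in both hst34 and both WT libraries. Members at 15 to 20 kb had 340.1 and 406 in hst34rrp6, 320.3 and 359.8 in rrp6, 304 and 253 in hst34, and 301 and 353 in WT. Genes at 20 to 40 kb, which are not members, had 281 and 310.2 in WT, lower than that. When all genes were ranked by mean RNA over the 8 libraries, 58 members (37.7%) fell in the lowest 25% and 25 members (16.2%) in the highest 25%. The ranks and the member medians include 5 members with almost no reads, described below, whose values are no measure of RNA level. No test of these levels was made.

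The members with the most RNA were housekeeping genes. RPS4B (a ribosomal protein, with a second gene for the same protein, so its reads are uncertain) had 9928 and 10075 in hst34rrp6 and 10402 and 12680 in WT. BGL2, a cell wall glucanase, had 11220.4 and 11389 in hst34rrp6 and 12269 and 12091 in WT. ERG13 (sterol synthesis), PDA1 (pyruvate dehydrogenase) and ZUO1 (a ribosome-bound chaperone) followed. Another 5 members had almost no reads in RNA or in DRIP. COS12, PDR18 and YNR071C were at 0 in all 8 RNA libraries, MAN2 reached 0.907 and AIF1 1.01, both in hst34. DRIP signal per kb of these genes was at most 11.1, for AIF1 in WT 1, where the median of all members was 86.4. Whether these loci are present in the strains, or whether reads matching several places were dropped there, was not tested, so their values are no measure of RNA level. PDR18, YNR071C, MAN2 and AIF1 are neighbours at the right end of chromosome XIV, next to COS10, which had 429 and 511 in hst34rrp6 and 275 and 337 in WT. COS12, PDR18 and YNR071C were left out of the RNA test, which left 151 members.

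**Figure D1:**
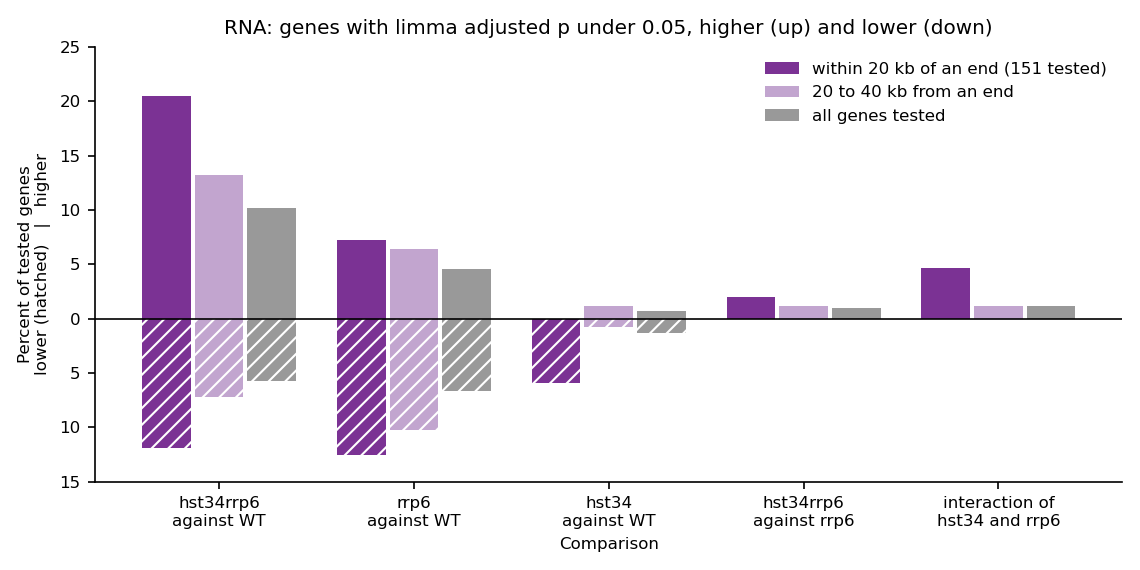
Percent of tested genes with a limma adjusted p under 0.05 in each RNA comparison, with genes higher in the first-named strain drawn upward and lower ones downward (hatched), for the 151 members, for genes 20 to 40 kb from an end and for all genes. The members' upward bar is longest in hst34rrp6 against WT, at 20.5% higher with 11.9% lower, beside 10.2% and 5.7% of all genes.

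In hst34rrp6 against WT, 49 of 151 members (32.5%) passed the test, 31 higher and 18 lower, where 15.9% of all 5294 genes did, 10.2% higher and 5.7% lower. A fold change here is a difference of log2(signal + 58.8) fitted by limma across all genes, with its standard error, and a gene passes at an adjusted p under 0.05. The median log2 fold change was 0.15 for members and 0.11 for all genes. Members that rose were mostly weakly expressed and those that fell more strongly: their median WT signals were 71.4 and 920.1. Over all genes that rose and fell the same medians were 97.6 and 1597. Among genes in the lowest 25% of RNA level, 24 of 55 tested members passed, 23 of them higher, beside 26.3% of all genes at that level. With each library centred on its own median, which sets aside the spike-in scale, the split was 38 higher and 40 lower, and 38.7% of all genes passed.

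AGP3, an amino acid permease on chromosome VI (16681 to 19921), rose most. Its RNA signal was 188 and 199 in hst34rrp6, 166 and 202 in rrp6, 59.4 and 49.7 in hst34, and 37.0 and 35.3 in WT. The libraries of hst34rrp6 and rrp6 overlapped each other and stood above all others. The log2 fold change against WT was 1.41 ± 0.17 in hst34rrp6 (adjusted p = 4.06e-15). YJR149W, an uncharacterised gene on chromosome X (706880 to 708672), had 445 and 556 in hst34rrp6, 507 and 567 in rrp6, 203 and 143 in hst34, and 172 and 164 in WT. Again both strains with tagged Rrp6 were high and did not overlap hst34 or WT, and the fold change in hst34rrp6 was 1.30 ± 0.21 (adjusted p = 7.92e-08).

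FRE2, a plasma membrane ferric reductase, had 189 and 202 in hst34rrp6, 161 and 166 in rrp6, 86.5 and 58.9 in hst34, and 70.3 and 53.8 in WT, a rise of 1.08 ± 0.17 in hst34rrp6 (adjusted p = 2.33e-08). YKR104W, which is annotated beside NFT1 on chromosome XI and resembles a part of an ABC transporter, had 168 and 216 in hst34rrp6 and 69.3 and 58.6 in WT. NFT1 itself, a putative ABC transporter, had 234 and 291 in hst34rrp6 and 144 and 129 in WT. Both rose, by 1.02 ± 0.17 for YKR104W and 0.72 ± 0.19 for NFT1. The other members among the 10 largest rises were MAL33, MAL11, SLO1, AYT1 (an acetyltransferase acting on trichothecenes) and SST2, which turns off the pheromone signal. AYT1 rose by 0.77 ± 0.17 and SST2 by 0.75 ± 0.22.

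GIT1, which imports glycerophosphoinositol, fell most. It had 140.2 and 165 in hst34rrp6, 171 and 196 in rrp6, 241 and 188 in hst34, and 547 and 507 in WT, and lies on chromosome III (296822 to 298798). WT stood above every other library, and the log2 fold change in hst34rrp6 was -1.47 ± 0.21 (adjusted p = 1.56e-10). PHO89, a sodium and phosphate cotransporter, had 193 and 188 in hst34rrp6, 141 and 142 in rrp6, 441 and 454 in hst34, and 512 and 742 in WT. Its interval overlaps the end of PCA1 on the other strand, and no label or header says whether counting used strand. It fell by 1.44 ± 0.21 on the log2 scale in hst34rrp6 (adjusted p = 1.48e-09).

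HSP31, YML131W and AAD6, which encode a methylglyoxalase and 2 dehydrogenases or relatives of them, fell in the same comparison. HSP31 had 296 and 348 in hst34rrp6, 182 and 179.8 in rrp6, 1127 and 611 in hst34, and 675 and 1326 in WT. WT and hst34 overlapped, and the strains with tagged Rrp6 were below both. YML131W, uncharacterised and overlapping a gene on the other strand, had 303 and 353 in hst34rrp6, 240.4 and 243 in rrp6, 1123 and 720.4 in hst34, and 839 and 1097 in WT. AAD6, an aryl-alcohol dehydrogenase gene next to AGP3, had 296 and 299 in hst34rrp6 and 724 and 863 in WT. The log2 fold changes in hst34rrp6 were -1.41 ± 0.22 for HSP31, -1.40 ± 0.22 for YML131W and -1.25 ± 0.22 for AAD6. The other members among the 10 largest falls were DAL5 (allantoate permease), YMR315W (an oxidoreductase), IRC7 (a beta-lyase acting on cysteine), HMRA1 and MHT1 (methionine synthesis from S-methylmethionine). MMP1, the S-methylmethionine permease next to MHT1, also fell, by 0.66 ± 0.22.

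The count for hst34rrp6 against WT was 27 without WT 1, 26 without WT 2, 31 without hst34rrp6 1 and 24 without hst34rrp6 2. Of the 49 members, 17 passed in every fit that left out 1 library, among them AGP3, YJR149W, FRE2, YKR104W, GIT1, PHO89, HSP31, YML131W, AAD6 and DAL5. Among the named genes, YMR315W did not pass without WT 2, IRC7 and HMRA1 without WT 1 or hst34rrp6 1, MAL33 without WT 1 or hst34rrp6 2, NFT1 and SLO1 without WT 2 or hst34rrp6 2, and SST2 without any of WT 1, WT 2 and hst34rrp6 2. Their log2 fold changes over the 8 fits ran from -1.08 to -0.74 for YMR315W, up to -0.67 for IRC7, from -0.96 to -0.67 for HMRA1, from 0.69 to 1.01 for MAL33, from 0.59 to 0.85 for NFT1, from 0.61 to 0.93 for SLO1 and from 0.58 to 0.92 for SST2. With the lowest 25% of genes dropped, 25 of 96 members passed, 8 higher and 17 lower, and the members' median turned to -0.03. The share and median of all genes in that fit are not given here. The shift therefore does not set members apart from other genes.

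**Figure D2:**
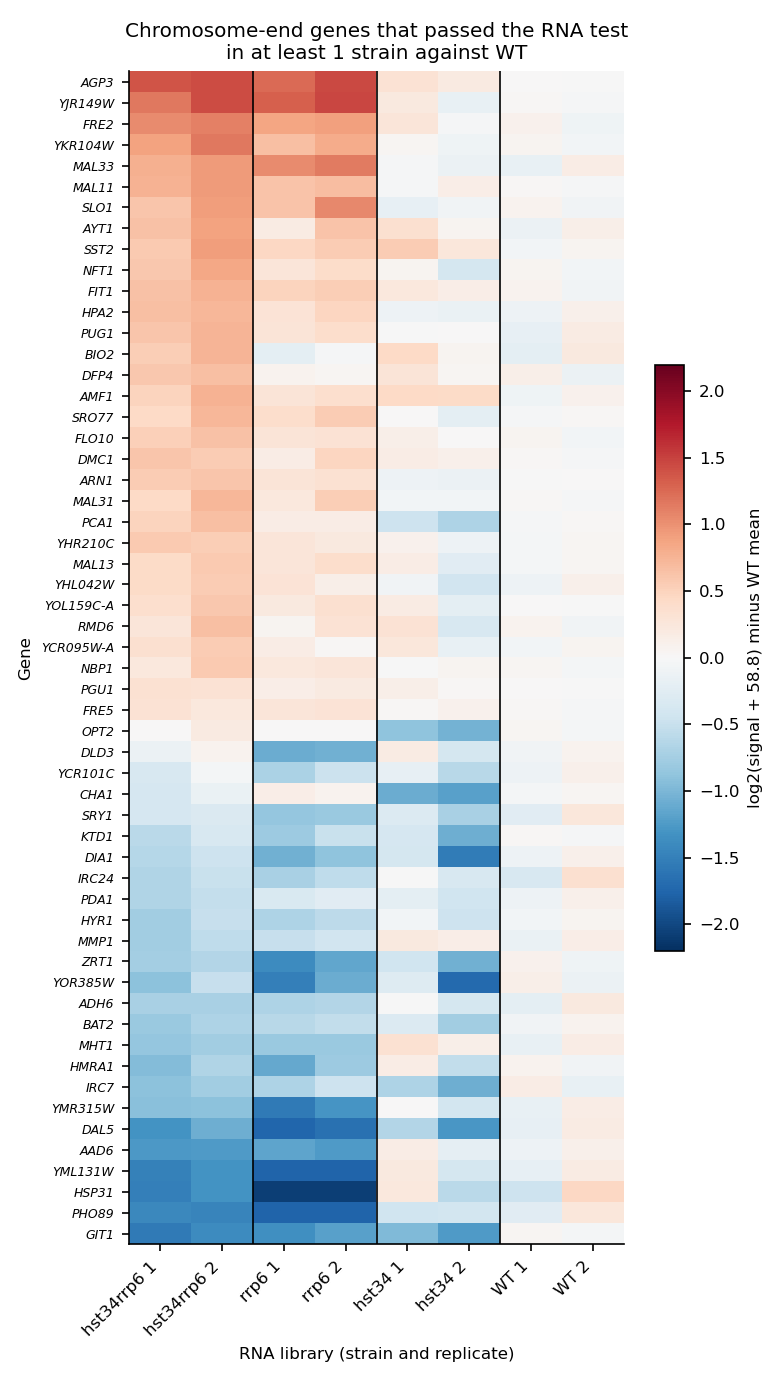
Heat map of log2(RNA signal + 58.8) minus the WT mean in each of the 8 RNA libraries, for the 56 members that passed the test in at least 1 strain against WT, ordered by their mean in hst34rrp6. Red cells are above the WT mean and blue cells below it, and the rrp6 and hst34rrp6 columns share their colours for most genes.

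In rrp6 against WT, 30 of 151 members (19.9%) passed, 11 higher and 19 lower, where 11.2% of all genes did, 4.53% higher and 6.63% lower. The median log2 fold change was 0.01 for members and 0.00 for all genes. With each library centred the split was 16 higher and 40 lower, and 33.3% of all genes passed. The largest fall was that of HSP31 at -2.07 ± 0.22 (adjusted p = 2.31e-18), with 182 and 179.8 in rrp6 against 675 and 1326 in WT. YML131W followed at -1.76 ± 0.22, PHO89 at -1.75 ± 0.21 and DAL5 at -1.69 ± 0.21. DAL5 had 178 and 218 in hst34rrp6, 116 and 129 in rrp6, 317 and 181 in hst34, and 459.7 and 602 in WT, so that hst34rrp6 and hst34 overlapped. The 10 largest falls also held YMR315W, YOR385W (uncharacterised), GIT1, ZRT1 (zinc uptake), AAD6 and DLD3.

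Members that rose in rrp6 were led by YJR149W at 1.39 ± 0.21 and AGP3 at 1.35 ± 0.17. MAL33, which encodes an activator of the maltose genes, had 492 and 557 in hst34rrp6, 607 and 656 in rrp6, 259 and 237 in hst34, and 230.2 and 301 in WT. It rose by 1.10 ± 0.22 in rrp6 (adjusted p = 1.88e-05), and its rrp6 libraries lay above all others. MAL11, a permease for maltose and trehalose, had 97.2 and 102 in rrp6 and 43.7 and 40.4 in WT, a rise of 0.65 ± 0.15. FRE2 rose by 0.88 ± 0.17, SLO1, a small gene of 292 bp, by 0.84 ± 0.19, and YKR104W by 0.74 ± 0.17. FIT1 (a cell wall protein that retains iron siderophores), HPA2 (a relative of histone acetyltransferases) and DMC1 (the recombinase of meiosis) rose too, from WT signals under 50: DMC1 had 18.4 and 35.9 in rrp6 and 11.2 and 8.45 in WT.

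The rrp6 count was 19 without WT 2, without rrp6 1 or without rrp6 2, and 48 without hst34 1 or hst34 2, which enter through the shared estimate of the spread. Of the 30 members, 15 passed in every fit that left out 1 library. SLO1 and YKR104W did not pass without rrp6 2, DMC1 without WT 1, WT 2 or rrp6 2, FIT1 without WT 2, rrp6 1 or rrp6 2, and HPA2 without WT 1, WT 2, rrp6 1, rrp6 2 or hst34rrp6 2. The smallest log2 fold change over the 8 fits was 0.63 for SLO1, 0.66 for YKR104W, 0.17 for DMC1, 0.44 for FIT1 and 0.27 for HPA2. Both comparisons share the WT libraries: 25 members passed in the same direction in rrp6 and in hst34rrp6, and none passed in opposite directions.

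In hst34 against WT, 9 of 151 members (5.96%) passed, all of them lower, where 2.0% of all genes did, 0.661% higher and 1.34% lower. The median log2 fold change was -0.08 for members and for all genes alike, and without hst34 2 it was 0.07 for members and 0.10 for all genes. At an unadjusted p under 0.05 there were 18 members, 11.9% of those tested, beside 8.33% of all genes. CHA1, which breaks down serine and threonine, had 752 and 881 in hst34rrp6, 1094 and 1044 in rrp6, 432 and 398 in hst34, and 954 and 1018 in WT. The hst34 libraries were below all others, and the log2 fold change was -1.14 ± 0.22 (adjusted p = 7.38e-05). OPT2, an oligopeptide transporter, also had its lowest signals in hst34. It had 168 and 197 in hst34rrp6, 166 and 168 in rrp6, 62.3 and 50.1 in hst34, and 171 and 159.9 in WT. Its change was -0.96 ± 0.18 (adjusted p = 3.26e-05).

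GIT1 fell in hst34 as well, by 1.10 ± 0.21 on the log2 scale. IRC7 had 2105 and 1597 in hst34 and 3829.7 and 3036 in WT, with no overlap, a change of -0.87 ± 0.22 that did not pass without WT 1 (-0.71). In YOR385W (796 and 256 in hst34, 1077 and 886 in WT) and DIA1, a gene of invasive growth (679.6 and 271 in hst34, 833 and 975 in WT), hst34 2 was the lower library by far, and without it the changes were -0.28 for YOR385W and -0.38 for DIA1, which did not pass. YOR385W also failed without WT 1 and DIA1 without WT 2. DAL5, ZRT1 and KTD1, which gives resistance to a killer toxin, completed the 9. DAL5 did not pass without WT 2 or hst34 2, and ZRT1 and KTD1 passed in 1 of the 8 fits, the one without hst34 1. Across all genes hst34 2 lay below the WT mean, with a median of -0.26, and hst34 1 above it, with 0.10. The member count was 5 without WT 1, 5 without WT 2, 18 without hst34 1 and 4 without hst34 2. CHA1, GIT1 and OPT2 passed in every one of the 8 fits. By edgeR's quasi-likelihood test on the recovered reads 22 members passed, 5 higher and 17 lower. With each library centred 15 did, 3 higher and 12 lower, beside 398 of all genes. No share of all genes is given here for edgeR, so the 22 does not set members apart from other genes.

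**Figure D3:**
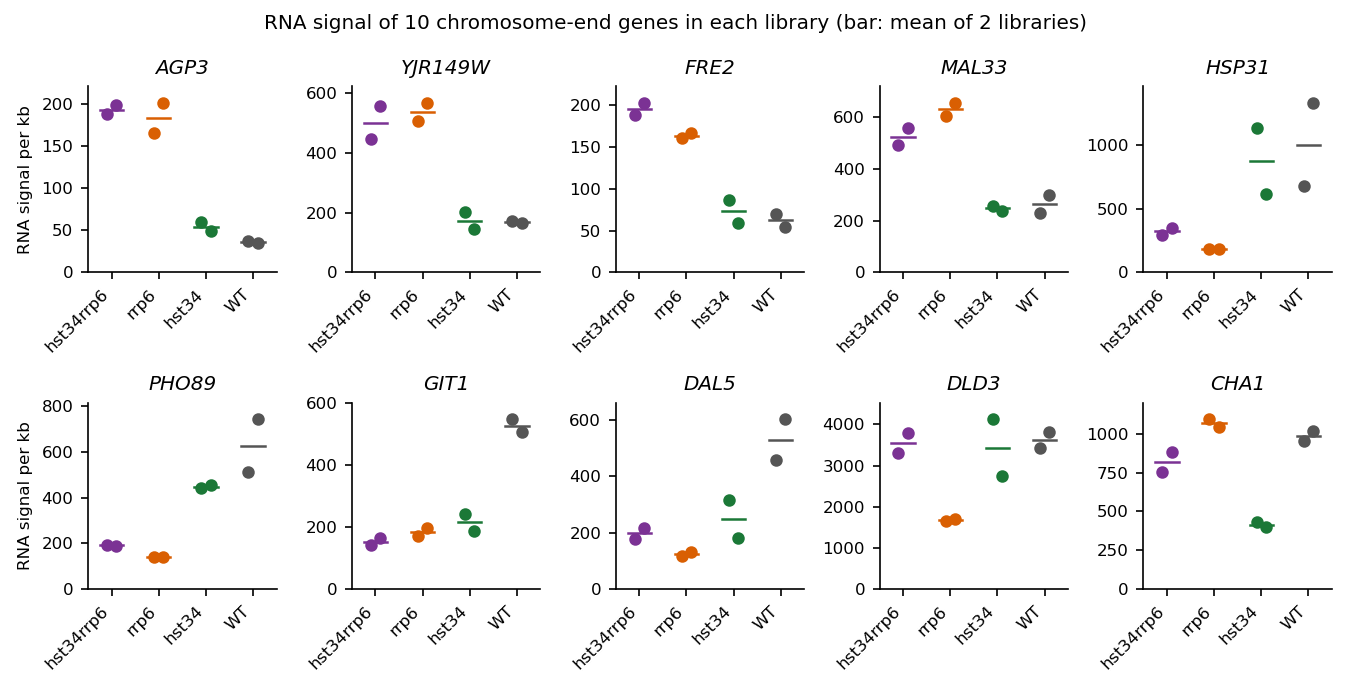
RNA signal per kb of 10 members in each library, with strains from left to right hst34rrp6, rrp6, hst34 and WT, a point for each library and a bar for the mean of 2. AGP3, YJR149W, FRE2 and MAL33 are high in the strains with tagged Rrp6, and HSP31, PHO89, GIT1 and DAL5 are low in them. GIT1 and DAL5 are below WT in hst34 too. DLD3 is low in rrp6, and CHA1 is low in hst34.

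Rrp6 was tagged in both strains of the next comparison, hst34rrp6 against rrp6. In it 3 of 151 members (1.99%) passed, all higher, where 1.04% of all genes did, 1.0% higher and 0.0378% lower. DLD3, which oxidises D-lactate and D-2-hydroxyglutarate, had 3305 and 3799 in hst34rrp6, 1657 and 1702 in rrp6, 4120.5 and 2746 in hst34, and 3417 and 3812 in WT. The rrp6 libraries stood below all others, and hst34rrp6 was higher than rrp6 by 1.05 ± 0.22 (adjusted p = 0.00045). CRG1, a methyltransferase that protects against the drug cantharidin, had 429.7 and 436 in hst34rrp6 and 207 and 243 in rrp6. DFP4, a member of the DUP family of membrane proteins, had 118 and 126 in hst34rrp6 and 63.5 and 61.7 in rrp6. In neither gene did the groups overlap, and the changes were 0.79 ± 0.21 and 0.57 ± 0.15. The call on DFP4 was lost by edgeR (adjusted p = 0.0594), by DESeq2 (0.134), with each library centred (0.14) and with a pseudocount of 1 (0.0965), while DLD3 and CRG1 passed in all 4. At an unadjusted p under 0.05 there were 30 members (19.9%), beside 7.46% of all genes. The count was 0 without rrp6 1, without rrp6 2 or without hst34rrp6 2, 2 without hst34rrp6 1, and 11 without hst34 1 or hst34 2.

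The interaction asks whether the change brought by the hst34 alleles was the same with and without tagged Rrp6. It passed for 7 of 151 members (4.64%), all positive, where it passed for 1.19% of all genes, 1.15% positive and 0.0378% negative. These were YOR385W, DAL5, DIA1, ZRT1, DLD3, OPT2 and SRY1, which acts on 3-hydroxyaspartate. YOR385W had 494 and 671 in hst34rrp6, 307 and 429.7 in rrp6, 796 and 256 in hst34, and 1077 and 886 in WT. Its interaction was 1.58 ± 0.31 (adjusted p = 0.000103). OPT2, with the values given above, had 1.06 ± 0.26 (adjusted p = 0.00518). YOR385W did not pass by DESeq2 (adjusted p = 0.297) or with each library centred (adjusted p = 0.0915), and DIA1 did not by DESeq2 (adjusted p = 0.0833). The other 5 passed in both and by edgeR. None of the 7 passed in all 8 fits that left out 1 library. The count was 0 without rrp6 1 and 0 without hst34rrp6 2, 4 without WT 2, 3 without hst34 2, 4 without rrp6 2 and 22 without hst34 1.

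Calls were also counted by distance, again taken at right ends from the last gene interval. Members that passed in hst34rrp6 against WT were 14 of 36 within 5 kb and 7 of 25 at 5 to 10 kb. At 10 to 15 kb they were 13 of 37, and at 15 to 20 kb 15 of 53. Genes at 20 to 40 kb, which are not members, passed in 54 of 264 cases (20.5%). In rrp6 against WT the same bins gave 8, 6, 6 and 10 members, and 44 of the 264 genes further in. Both directions occurred at the same ends. Of 23 ends with a member that passed in hst34rrp6, 8 held a member that rose and one that fell. At the right end of chromosome X, DAL5 fell and YJR149W rose. At the left end of chromosome VI the neighbours AAD6 and AGP3 went in opposite directions, and at the right end of chromosome II PHO89 fell while MAL33 and MAL31 rose.

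**Figure D4:**
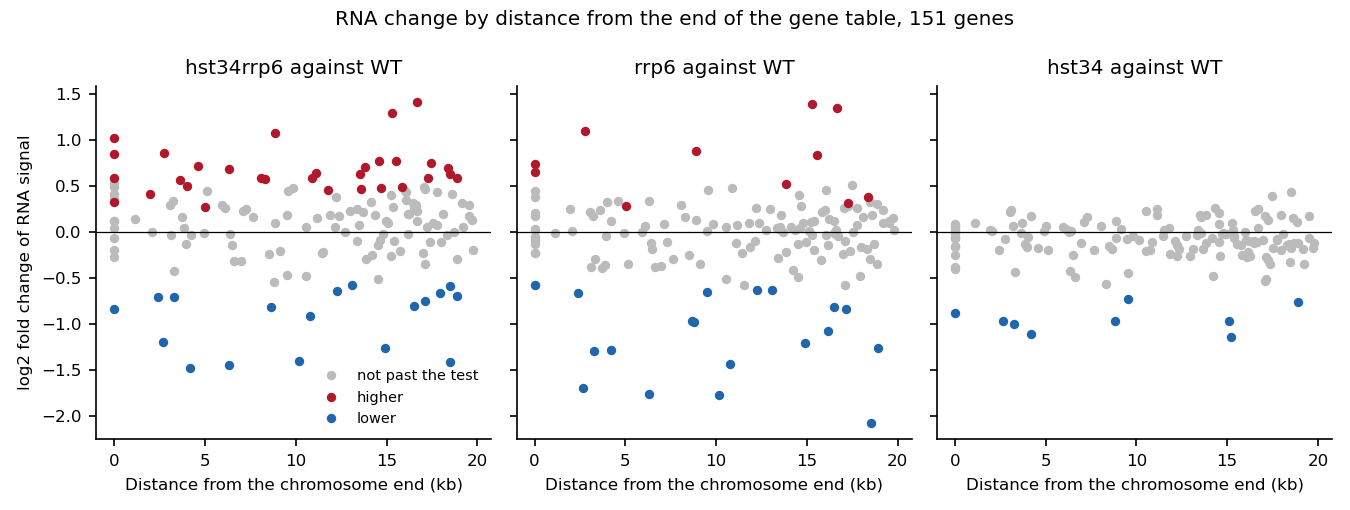
Log2 fold change of RNA against distance in kb from the left chromosome end or, at right ends, from the last gene interval. The 151 tested members are shown in hst34rrp6, rrp6 and hst34, each against WT. Points are genes, red where higher and blue where lower by the limma test, and both colours occur over the whole width in hst34rrp6 and rrp6.

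Among gene groups typical of subtelomeres, 5 members were on a list for sugar transport and disaccharide use, which counted the hexokinase gene HXK1. In hst34rrp6 against WT, MAL33, MAL31, MAL13 and MAL11 rose and HXK1 did not pass, with 197 and 268 in hst34rrp6 and 349 and 337 in WT. MAL31, a maltose permease, had 122 and 163 in hst34rrp6 and 77.3 and 72.5 in WT. In rrp6 against WT MAL33 and MAL11 passed, and in hst34 none of the 5 did. MAL31 did not pass in hst34rrp6 without WT 2 or hst34rrp6 2, and MAL13 passed in 2 of the 8 fits, those without an hst34 library. The MAL genes belong to repeated loci, so reads can be split between copies.

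Of 13 members for iron and other metals, 4 rose in hst34rrp6 against WT (FRE2, FIT1, ARN1 and FRE5), ZRT1 fell, and 8 did not pass. ARN1, a siderophore transporter, had 432 and 449.5 in hst34rrp6, 349 and 359.8 in rrp6, 249 and 245 in hst34, and 271 and 278 in WT. FRE5, a ferric reductase homologue, was weak everywhere, with at most 19.8 in hst34rrp6 and 5.06 in WT. In rrp6 against WT, FRE2, FIT1 and FRE5 rose and ZRT1 fell, and in hst34 against WT only ZRT1 of the 13 passed, lower. ZRT1 had 491 and 538 in hst34rrp6, 297 and 364 in rrp6, 624 and 386 in hst34, and 931 and 813 in WT, above every other library. In hst34rrp6 against WT, ARN1 and FRE5 passed in 2 of the 8 fits, those without an hst34 library, and ZRT1 did not pass without any 1 of the WT or hst34rrp6 libraries. In rrp6 against WT, FRE5 did not pass without any 1 of the WT or rrp6 libraries, and FIT1 not without WT 2, rrp6 1 or rrp6 2. The iron genes FIT2, FIT3, FRE3, ENB1 and FET4 and the arsenic genes ARR1, ARR2 and ARR3 did not pass in any of the 3 strains against WT.

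Of 4 members for phosphate and sulfur compounds, PHO89, GIT1 and MMP1 fell in hst34rrp6 against WT, PHO89 and GIT1 fell in rrp6, and GIT1 fell in hst34. SEO1, a putative permease, had 36.1 and 39.8 in hst34rrp6 and 11.1 and 36.3 in WT. BIO2 (biotin synthase) had 578 and 676 in hst34rrp6, 321 and 371 in rrp6, 535 and 397 in hst34, and 319 and 449.7 in WT, and it rose in hst34rrp6 against WT by 0.64 ± 0.22. In that comparison MMP1 did not pass without WT 2 or any 1 of the rrp6 and hst34rrp6 libraries, nor BIO2 without WT 1 or any 1 of the rrp6 and hst34rrp6 libraries.

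Multi-gene families were sparse among the members, but many of their genes had no measured interval anywhere in the genome. Intervals were present for 1 of 24 listed PAU genes, 0 of 8 Y' element genes, 4 of 12 COS genes and 2 of 7 AAD genes. They were also present for 1 of 4 IMD, 3 of 5 FLO, 5 of 8 DAN and TIR, and 5 of 13 thiamine and vitamin B6 genes. FLO10, a flocculin, rose in hst34rrp6 by 0.59 ± 0.15, with 96.0 and 109 against 52.9 and 44.4 in WT, and did not pass without WT 2, and FLO5 did not pass. AAD6 fell and AAD14, with 147 and 129 in hst34rrp6 and 82.2 and 90.1 in WT, did not pass. COS9, COS10 and DAN4, an anaerobic mannoprotein gene, did not pass in any strain against WT. SIR1, RIF2 and RPD3, which act in silencing and at telomeres and are themselves members, did not pass either. No gene on the PAU, Y' element, thiamine or IMD lists was a member.

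HMRA1 is the copy of the a1 gene at the silent mating locus HMR. It had 274 and 346 in hst34rrp6, 236 and 311 in rrp6, 663 and 386 in hst34, and 623 and 549 in WT. Both strains with tagged Rrp6 were below hst34 and WT, and the log2 fold change against WT was -0.81 ± 0.22 in hst34rrp6 and -0.96 ± 0.22 in rrp6 (adjusted p = 0.00284 and 0.000255). The call was lost without WT 1 or hst34rrp6 1 in hst34rrp6 and without rrp6 1 in rrp6. In cells of mating type a the same sequence stands at the expressed MAT locus, so reads from the 2 places cannot be told apart.

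DRIP-seq recovers DNA from RNA-DNA hybrids with the S9.6 antibody, and RNase H, which cuts the RNA in such hybrids, serves as a control. The deposited signal is per gene interval, and values below are per kb. In 7 libraries between 935412 and 2951246 reads fell in genes, and in WT 2 there were 83303106. Each library's signal summed to between 902159 and 1134350, so differences in total hybrid content between libraries are not measured by these values. The libraries WT 2 and WT 2 with RNase H stood apart. Over all genes their DRIP signals had a Spearman correlation of 0.99 with each other, and of at most 0.82 with the other libraries. Those share gene length and base composition with them. The hst34 libraries with RNase H had 0.79 and 0.77 with hst34 1 over all genes, and 0.85 each with hst34 2. Per kb among members, hst34 1 with RNase H had 0.81 with WT 2, and 0.60 and 0.73 with hst34 1 and hst34 2. For hst34 2 with RNase H the same values were 0.78, 0.61 and 0.75.

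The members' median DRIP signal per kb was 104 and 86.2 in hst34 with RNase H, 75.5 and 74.5 in hst34, 93.4 and 78.1 in WT with RNase H, and 86.4 and 78.7 in WT. The other 5144 genes had 103 and 88.8 in hst34 with RNase H, 82.4 and 78.7 in hst34, 103 and 75.5 in WT with RNase H, and 95.1 and 77.9 in WT. The member median was below that of the other genes in 5 libraries and above it in 3, WT 2 and WT 2 with RNase H among those 3. Left-end and right-end members ranked differently in WT 2, at 112 for left ends and 62.4 for right ends, than in WT 1, at 81.5 for left ends and 88.4 for right ends.

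The members with the highest DRIP signal per kb without RNase H were HMRA1, SLO1, SGE1 (a drug exporter), PDP3 (a chromatin reader protein) and RPN12 (a proteasome subunit). HMRA1 had 227 and 171 in hst34 with RNase H, 345 and 393 in hst34, 389.7 and 114 in WT with RNase H, and 436 and 111 in WT. It was low in both WT 2 libraries. SLO1 had 191 and 245 in hst34 with RNase H, 180.0 and 301 in hst34, 254 and 517 in WT with RNase H, and 162 and 426 in WT, and it was highest in those same 2 libraries. For both genes the 2 hst34 libraries lay between WT 1 and WT 2.

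No member and no other gene passed in any of the 5 DRIP comparisons by limma, so that 0.0% of the 5298 genes were called in hst34 against WT, in the RNase H effect in WT, in the RNase H effect in hst34, in hst34 against WT with RNase H in both, and in the interaction of strain and RNase H. At an unadjusted p under 0.05 there were 22 members (14.3%) in the RNase H effect in hst34, beside 10.2% of all genes. There were 4 members (2.60%) in hst34 against WT beside 2.64% of all genes, 4 (2.60%) in the same with RNase H beside 4.00%, and 3 (1.95%) in the interaction beside 1.74%. In the RNase H effect in WT there were 0 members and 0 of all genes. By edgeR the count of members was 0 in each comparison, and by DESeq2 it was also 0 in each, with 49 of all genes in the RNase H effect in hst34 and 21 in hst34 against WT with RNase H. With the replicate number as a block it was again 0 in each, and at an unadjusted p under 0.05 it left 42 members (27.3%) in the RNase H effect in hst34, beside 19.4% of all genes, and 14 (9.09%) in hst34 against WT, beside 8.72%. In hst34 against WT the median log2 difference in DRIP signal was -0.16 for members and -0.02 for all genes, with 96 of 154 members below 0. Without WT 2 the medians were -0.16 for members and -0.17 for all genes, and without WT 1 they were -0.17 and 0.15. For the members within 20 kb of the last RefSeq gene the median was -0.31, and for the other 67 members it was 0.18, with 36 above 0. At left ends it was -0.35 and at right ends -0.03. The 9 members whose RNA fell in hst34 had DRIP differences from -0.72 to 0.72, with a median of -0.14.

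Signal after RNase H was not below that before it for most members. The median log2 difference, treated minus untreated, was 0.54 in hst34, with 125 of 154 members above 0, and 0.34 for all genes. With each library centred these were 0.31 and 0.12. In WT it was 0.09 for members, with 104 above 0, and 0.07 for all genes, and without WT 1 with RNase H it was -0.04 for members and -0.22 for all genes. The interaction of strain and RNase H had a median of 0.43 for members and 0.28 for all genes, and of 0.27 and -0.04 without WT 2 with RNase H. With only the hst34 libraries in the fit, the RNase H effect in hst34 passed for 44 of 152 members (28.9%), 42 of them higher with RNase H. Of all 5296 genes tested there, 1060 passed. With the replicate block added to that fit, which pairs each treated library with the untreated one of its number, 57 members passed (37.5%), 52 of them higher, beside 27.4% of all genes. The same fit for WT alone gave 0 members and 0 of all genes. At an unadjusted p under 0.05 it gave 1 member (0.65%) and 199 of all genes (3.76%). Each of these paired fits rests on 2 pairs of libraries.

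**Figure D5:**
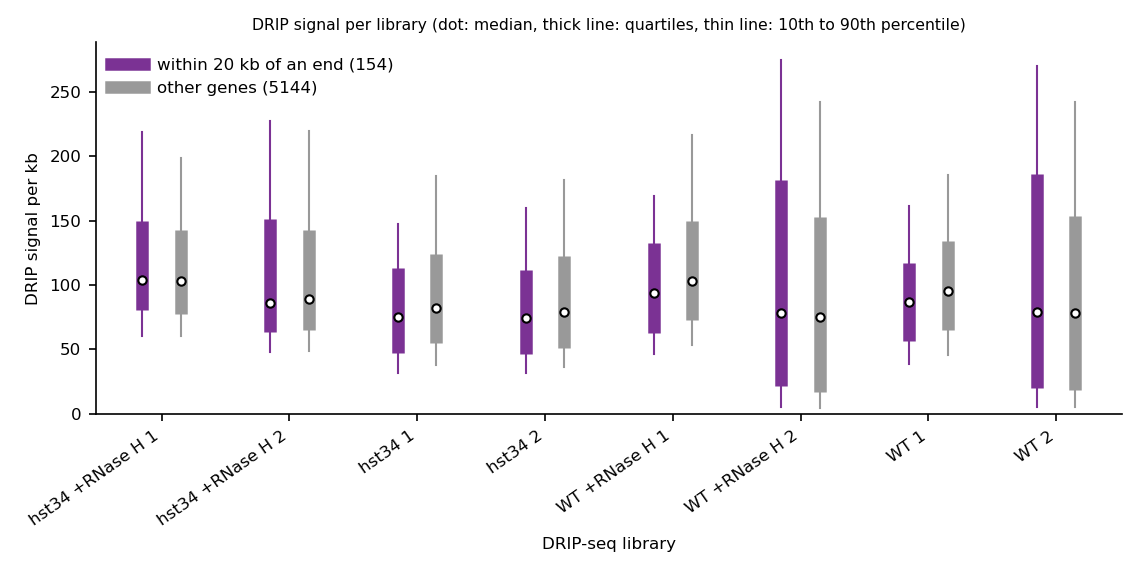
DRIP signal per kb in each of the 8 DRIP-seq libraries for the 154 members and the other 5144 genes, drawn as the median (dot), quartiles (thick line) and the range from the 10th to the 90th percentile (thin line). Member medians run from 74.5 to 104, and the ranges are widest in WT 2 and WT 2 with RNase H.

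Break-seq labels DNA ends to map breaks. Of the 239 deposited peaks, 15 had their centre within 20 kb of an end, at 10 chromosome ends. The authors called 1 list of peaks for hst34 against WT, so a higher signal in hst34 is how the peaks were chosen and is not a result: all 15 were higher in hst34 by limma, as were 100% of the 239 peaks. With each library centred, 2 of the 15 and 42 of the 239 passed. The median log2 difference was 0.59 for these 15 and 0.56 for all 239. The peak on chromosome VII at 1054001 to 1059250, over YOR1, BGL2 and UPA1, had a signal of 821 and 997 in hst34 and 449.97 and 403 in WT, a difference of 0.98 ± 0.09. The peak on chromosome VI at 264751 to 269250, which overlaps IRC7, had 743 and 911 in hst34 and 412 and 404 in WT. The smallest difference among the 15 was 0.42 ± 0.10, on chromosome XI at 656001 to 657000, over YKR104W. In all, 22 members (14.3%) overlapped a peak by at least 1 bp, beside 542 of all 5298 genes (10.2%).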

How the data were processed

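RNA-seq (8 libraries), DRIP-seq (8) and Break-seq (4) were used, 2 libraries per group, and the 7 NET-seq samples are not analysed here. Per the submitters' processing notes, Bowtie2, TopHat2, SAMtools and HTSeq 0.9.1 served RNA-seq, Bowtie2 and bedtools DRIP-seq, and Bowtie2 Break-seq, on sacCer3; filters and strand use were not stated in any source at hand. All deposited values are a signal: the authors scaled RNA reads to an S. pombe spike-in and gene length, per the table's title, and DRIP and Break-seq reads by 1 constant per library. The design had allowed for counts, so the test was changed to one for scaled values. Dividing by the value of 1 read gave whole reads for 100% of values in all 20 libraries, within 0.01, and only the edgeR and DESeq2 alternatives used them. Molecules carried no identifiers, so depth speaks to counting error alone.

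Differences were fitted to log2(value + pseudocount) by limma 3.58.1 with its trend option, in R 4.3.3, all libraries of a table in 1 fit, with Benjamini-Hochberg adjustment over all genes above 0 in at least 2 libraries (5294 in RNA, 5298 in DRIP). The pseudocount was the 5th percentile of positive values, 58.8 in RNA, 12.5 in DRIP and 68.2 in Break-seq, so changes of low genes are understated. Each ± is limma's standard error with n = 2 per group. In RNA the prior df was infinite, so the error follows level and not a gene's own scatter. The fit was run on simulated data with larger changes than most reported here, and with less scatter than DRIP. That run therefore does not speak to smaller changes or to the scatter in DRIP. edgeR 4.0.16 and DESeq2 1.42.0 were alternatives. Named were up to 10 members per direction with the largest RNA change, up to 6 in DRIP, the 5 with the highest level in each, the listed families and the genes at the 20 kb limit; other members were named after their values were seen. The members and gene lists were chosen with earlier results of these data known. Symbols came from RefSeq, which matched all 154 members. Coordinates are printed as deposited. No sequences were used.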

Additional observations from a re-analysis of the deposited data

Results flagged for a closer look

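For 7 members the RNA change brought by the hst34 alleles differed between strains with and without tagged Rrp6, by the interaction term of limma. The interaction was 1.58 for YOR385W, 1.46 for DAL5, 1.40 for DIA1, 1.32 for ZRT1, 1.15 for DLD3, 1.06 for OPT2 and 1.00 for SRY1, on the log2 scale. In OPT2 the hst34 libraries, at 62.3 and 50.1, lay below all others, and in DLD3 the rrp6 libraries, at 1657 and 1702, did. In YOR385W and DIA1 the library hst34 2 was the lowest of all, at 256 and 271, and neither passed without it. By DESeq2 YOR385W and DIA1 did not pass (adjusted p = 0.297 and 0.0833). With each library centred, which removes the offset of hst34 2, the interactions were 1.38 for YOR385W (adjusted p = 0.0915), 1.25 for DAL5, 1.19 for DIA1, 1.11 for ZRT1, 0.94 for DLD3, 0.85 for OPT2 and 0.79 for SRY1, and all except YOR385W passed. None of the 7 passed in every fit that left out 1 library.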

How the results depend on the processing

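Counts of members that passed depended on scale and tool. Most counts below stand without the share of all genes in the same fit. They therefore do not show whether members moved more than other genes. For hst34 against WT, 9 became 15 with each library centred, 3 with the compared groups alone, 22 by edgeR and 18 by DESeq2. For rrp6 against WT, 30 became 56 (centred), 48 (groups alone), 65 (edgeR) and 59 (DESeq2). For hst34rrp6 against WT, 49 became 78 (centred), 25 with the lowest 25% of genes dropped and 89 (edgeR). For hst34rrp6 against rrp6, 3 became 5 with no filter and 12 with groups alone, by edgeR and by DESeq2. The interaction count of 7 became 16 by edgeR and 13 by DESeq2. The cause of these moves was not tested. Members within 10 kb of an end gave 14 calls for rrp6 and 21 for hst34rrp6, each against WT, 1 between hst34rrp6 and rrp6, and 3 in the interaction, from 61 genes tested; those within 20 kb of the last RefSeq gene gave 5 in hst34, 19 in rrp6, 30 in hst34rrp6 and 4 in the interaction, from 84. With the replicate block, counts were 7, 22 and 35 in hst34, rrp6 and hst34rrp6 against WT, 5 in the interaction, and 1 in hst34rrp6 against rrp6; the labels do not say that numbers mark shared cultures, and deviations of same-numbered RNA libraries correlated from -0.20 to 0.11 (0.12 to 0.94 in DRIP). Leaving out 1 library each gave 4 to 18, 19 to 48, 24 to 68, 0 to 11 and 0 to 22 in the 5 RNA comparisons, 0 throughout in DRIP, and 15 throughout in Break-seq. In DRIP, the RNase H effect in hst34 passed for 44 members with groups alone and 57 with groups alone and the replicate block; the block in the fit of all libraries left every DRIP count at 0. Of the 15 Break-seq peaks 2 passed when centred, and 8 lay within 10 kb. The members' median in hst34 against WT was 0.07 without hst34 2. No named gene changed direction. Right ends from chromosome lengths and members without near-identical copies were planned and not run, as neither lengths nor sequences were used here; the RefSeq ends, the members outside families (141) or overlapping no other gene (118) the DRIP interaction and the block with groups alone were added after seeing the data.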
